A study of Mus musculus with 39 samples.

Results

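The nuclear-encoded genes of the mitochondrial respiratory chain were taken as all symbols of the deposited count table that match naming patterns of subunits of complexes I to V. Matches that are pseudogenes were kept. The patterns were Ndufa, Ndufb, Ndufc, Ndufs or Ndufv with a digit (complex I), Sdha to Sdhd (complex II), Uqcr (complex III), Cox4 to Cox8 (complex IV) and Atp5 (complex V, the ATP synthase). They found 83 of 16358 genes, of which 39 were counted by symbol under complex I, 4 under complex II, 8 under complex III, 15 under complex IV and 17 under complex V. RNA was measured by bulk RNA sequencing in the whole duodenum of male wild-type C57BL/6 mice aged 8 weeks, in 39 libraries. Every mouse had a cannula in the right lateral brain ventricle for 3 days and was food-deprived for 2 h before an injection through it, and the duodenum was taken 2 h after the injection. Leptin-antibiotic mice (6 libraries) received 3 µg of leptin after 48 h of ampicillin (1 g/L) and neomycin (0.5 g/L) in the drinking water. Saline-antibiotic mice (6 libraries) had the same water and received saline. Leptin-water mice (13 libraries) received leptin, and Saline-water mice (14 libraries) saline, without antibiotic. The library names are of 2 kinds, here called set MT and set M. Set MT holds the 12 antibiotic libraries with 6 Leptin-water and 6 Saline-water libraries, and set M holds 7 Leptin-water and 8 Saline-water libraries without antibiotic.

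The respiratory chain passes electrons from NADH through complex I, and from succinate through complex II, to ubiquinone, then through complex III and cytochrome c to complex IV, which reduces oxygen. Complexes I, III and IV pump protons across the inner mitochondrial membrane, and complex V makes ATP from the returning protons. Absorptive enterocytes of the small intestine are rich in mitochondria and use this ATP for nutrient transport. All complexes but complex II also contain subunits encoded by mitochondrial DNA, which were not analysed here.

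The labels do not say whether each library came from a separate animal, so p-values measure the spread between these libraries. Library totals were 30207536 to 67870777 counts, and the 83 genes took 0.915% to 1.40% of them. All 15 enterocyte markers and all 7 markers of duodenal identity were detected, with list means of 9.62 to 10.7 and 7.99 to 8.95 log2 CPM (counts scaled to the library total) over the libraries. The exocrine pancreas list had a mean over 4 log2 CPM in 6 libraries, which were Leptin-antibiotic 3, Saline-antibiotic 1, 2 and 5, and Leptin-water 6 and 10. These 6 are called the libraries high in pancreas genes. Saline-water 13, of set MT, also stood apart. It had the lowest value of all 39 libraries for 40 of the 83 genes and the highest for 6. Leptin-antibiotic 3 had the highest value of all 39 libraries for 52 of the 83 genes. Values without these libraries are given beside the results they move most.

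Most of the 83 genes were strongly expressed. Per kilobase of merged exons, their median level over all libraries was 48.9 CPM per kb, against 3.55 CPM per kb for all genes. The complex medians were 103 CPM per kb for complex III, 96.5 for complex II, 84.2 for complex IV, 47.1 for complex V and 32.1 for complex I. The catalytic core of the ATP synthase led the list, with Atp5a1 (alpha subunit) at 407 CPM per kb and Atp5b (beta subunit) at 351 CPM per kb. Atp5o, a stalk subunit, lay between them at 360 CPM per kb. Its exon length of 530 bases comes from an annotation entry that does not hold the RefSeq start of Atp5o, so this level is uncertain. After Atp5a1, Atp5o and Atp5b came the complex IV subunits Cox8a (305 CPM per kb), Cox6a1 (298 CPM per kb), Cox6b1 (285 CPM per kb) and Cox4i1 (198 CPM per kb). The 4 genes below a mean of 1 log2 CPM were Cox4i2, Cox6b2, Ndufa4l2 and Ndufa11b. Cox4i2 and Cox6b2 are the hypoxia-linked and testis forms of Cox4i1 and Cox6b1, and they reached 0.63 and 0.835 CPM per kb. Ndufa4l2 reached 0.527 CPM per kb, whereas its paralogue Ndufa4, named for complex I but now placed in complex IV, reached 49.2 CPM per kb. Of the Cox7a genes, Cox7a2 had 114 CPM per kb, Cox7a2l, a supercomplex factor, had 69.8 and Cox7a1, known as the heart and muscle form, had 43.1. Ndufa11b and Ndufb4c are annotated as processed pseudogenes, and with Ndufs5-ps and Cox7c-ps1 they can share reads with their parent genes, so the values of these genes are uncertain.

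Group means of the chain were ordered the same way in every complex within set MT. Its mean over the 83 genes was 6.13 ± 0.13 log2 CPM in Leptin-antibiotic, 5.96 ± 0.11 in Saline-antibiotic, 5.90 ± 0.15 in Leptin-water and 5.81 ± 0.12 in Saline-water libraries (SD, n = 6 each). Neighbouring groups in this order overlapped. Means of Leptin-water and Saline-water were close in complex II (7.93 and 7.90 log2 CPM) and complex III (7.01 and 6.96). By medians, complex III had 6.95 in Leptin-water and 6.99 in Saline-water libraries. In both complexes Leptin-water 10, high in pancreas genes, was the highest Leptin-water library of set MT (8.13 and 7.24). Leptin-antibiotic had the highest group mean of the 4 for 81 of the 83 genes, and Saline-water had the lowest for 65. In set M the mean was 5.89 ± 0.09 log2 CPM in Leptin-water (n = 7) and 5.96 ± 0.09 in Saline-water libraries (n = 8). In whole tissue, more cells of a type and more RNA per cell cannot be told apart.

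**Figure D1:**
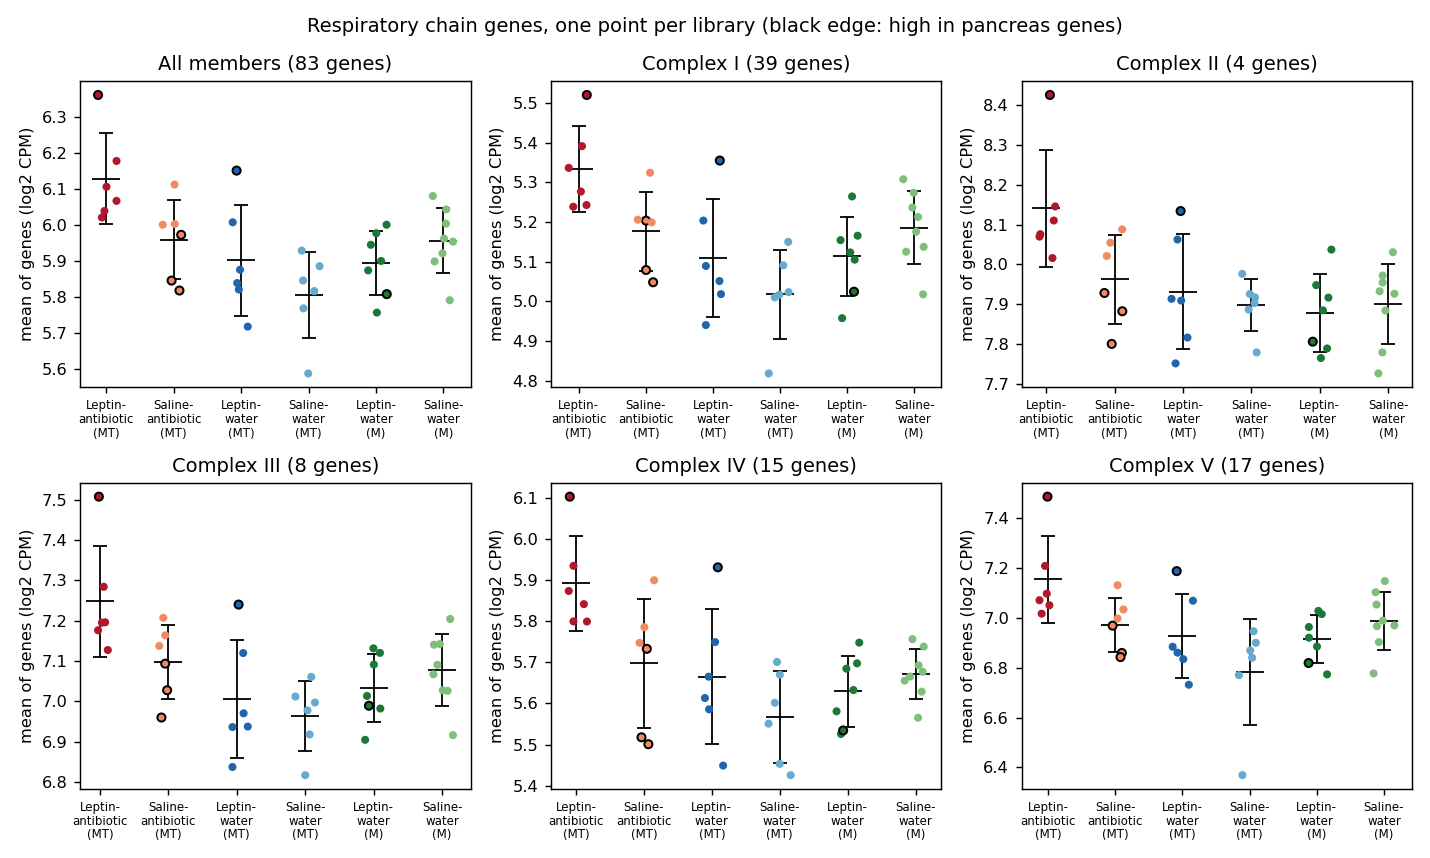
Mean log2 CPM of the genes of each complex (y axis) in each library, for the 6 groups (x axis), with set MT on the left and set M on the right. Bars are mean and SD, and black edges mark the libraries high in pancreas genes. The highest point in the panel of all members is Leptin-antibiotic 3 at 6.36 and the lowest is Saline-water 13 at 5.59.

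With antibiotic in leptin-injected mice, fold changes were mostly positive in every complex. All but 1 of the 83 genes had a positive log2 fold change, with a median of 0.22 against −0.01 for all 16340 genes tested. The medians by complex were 0.22 for complex I, 0.22 for complex II, 0.26 for complex III, 0.22 for complex IV and 0.22 for complex V. By edgeR's quasi-likelihood test with Benjamini-Hochberg adjustment over all genes, 5 genes rose and 0 fell at an adjusted p under 0.05, where 2.28% of all genes passed and 1.85% rose. At an unadjusted p under 0.05 there were 50 of the 83, against 18.9% of all genes. The 5 genes were Ndufb10 and Ndufs7 of complex I, Sdhc of complex II, Cox6a1 of complex IV and Atp5h of complex V. In complex III all 8 genes were positive and 0 passed (lowest adjusted p = 0.0559).

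Ndufb10, an accessory subunit of the membrane arm of complex I (GRCm38 chromosome 17, 24722060 to 24724478, minus strand), had a lowest, median and highest value of 63.9, 71.5 and 82.4 CPM in Leptin-antibiotic libraries. In Leptin-water libraries of set MT these were 48.5, 53.7 and 58.4 CPM, and the groups did not overlap. It rose 1.35-fold (log2 0.43, SE 0.06, adjusted p = 0.00268). Cox6a1, the widely expressed form of subunit 6A of complex IV (chromosome 5, 115345642 to 115348981, minus strand), had 217, 244 and 329 CPM against 167, 182 and 223 CPM. It rose 1.42-fold (log2 0.50, SE 0.09, adjusted p = 0.00391), and only the lowest Leptin-antibiotic library fell below the highest Leptin-water library. Both genes kept an adjusted p under 0.05 whichever of the 24 libraries was left out, with a highest value of 0.0119 for Ndufb10 and 0.0207 for Cox6a1.

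Atp5h, subunit d of the peripheral stalk of the ATP synthase (chromosome 11, 115415689 to 115419962, minus strand), had 128, 136 and 164 CPM in Leptin-antibiotic and 99.1, 115 and 138 CPM in Leptin-water libraries (log2 0.30, SE 0.07, adjusted p = 0.0245). Sdhc, which anchors succinate dehydrogenase in the membrane (chromosome 1, 171127165 to 171150603, minus strand), had 207, 217 and 270 CPM against 165, 186 and 208 CPM (log2 0.28, SE 0.07, adjusted p = 0.033). Ndufs7, an iron-sulfur subunit next to the quinone site (chromosome 10, 80249121 to 80256794, plus strand), had 53.7, 59.1 and 67.3 CPM against 46.2, 51.6 and 55 CPM (log2 0.24, SE 0.06, adjusted p = 0.0462). In these 3 genes the groups overlapped at their edges. Cox5a, which carries a matrix-side part of complex IV, did not overlap between groups (194 to 239 against 151 to 193 CPM), but it did not pass (log2 0.28, adjusted p = 0.162). In all, 7 of the 83 genes were higher in every Leptin-antibiotic than in every Leptin-water library, where 1.83% of all genes were. The others besides Ndufb10 and Cox5a were Ndufa2, Ndufs1, Ndufs3, Uqcrh and Uqcrq.

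**Figure D2:**
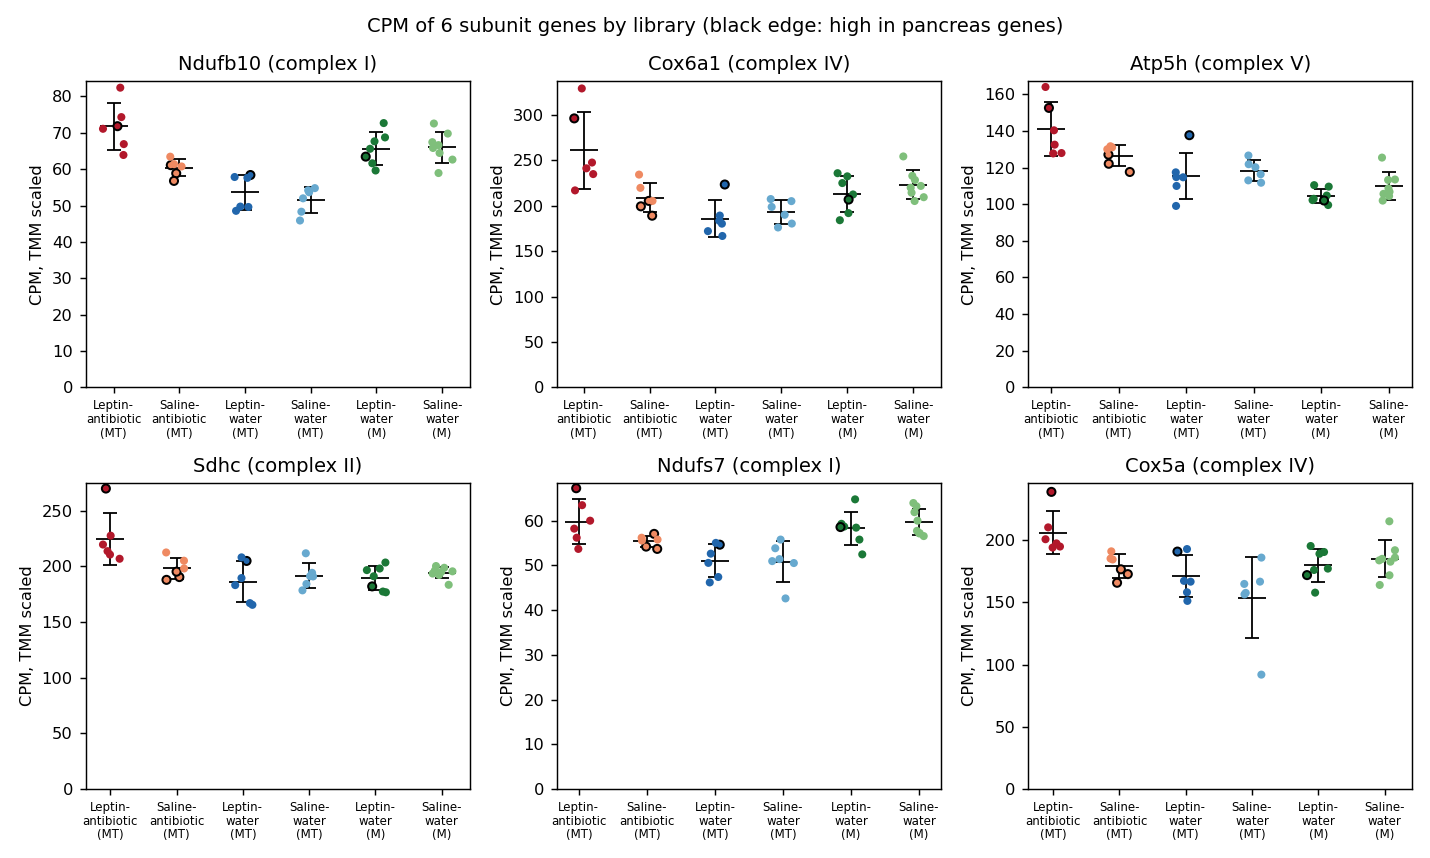
CPM after TMM scaling (y axis, from 0) of the 5 genes that passed with antibiotic in leptin-injected mice and of Cox5a, by library and group. Bars are mean and SD, and black edges mark the libraries high in pancreas genes. Ndufb10 lies at 63.9 CPM or more in all 6 Leptin-antibiotic libraries and at 58.4 CPM or less in all 6 Leptin-water libraries of set MT.

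Other catalytic and core subunits did not pass. In complex I the log2 fold change was 0.21 for Ndufs1 and 0.26 for Ndufv1, which bind iron-sulfur clusters and, in Ndufv1, the flavin (adjusted p 0.0687 for both). In complex II it was 0.16 for Sdha and 0.22 for Sdhb. In complex III it was 0.26 for the core protein gene Uqcrc1 and 0.29 for the Rieske protein gene Uqcrfs1. Cox4i1 had 0.25, and Atp5a1 and Atp5b had 0.25 and 0.22. Among the paralogues, Cox7a1 had 30.2 ± 4.76 CPM in Leptin-antibiotic and 21.5 ± 4.45 CPM in Leptin-water libraries (log2 0.50, adjusted p = 0.0763), whereas Cox7a2l had 108 ± 7.72 and 104 ± 11.2 CPM (log2 0.08, adjusted p = 0.59). The c-ring genes of complex V, Atp5g1, Atp5g2 and Atp5g3, had 0.30, 0.19 and 0.36.

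The number of genes that passed depended on single libraries. Among the larger changes, it was 2 without Leptin-antibiotic 2 or 3 or without Leptin-water 8, 9 or 11 and 3 without Saline-antibiotic 4 or Saline-water 12. It was 8 without Leptin-water 10 and 9 without Leptin-water 12. The share of all genes that passed in each of these fits is not given here, so these counts cannot be set against it. With each of the 24 libraries left out in turn, Ndufs7 failed to pass in 19 cases (highest adjusted p = 0.175 by edgeR). Sdhc failed to pass in 7 cases and Atp5h in 5. The median log2 fold change of the 83 genes ran from 0.16 to 0.26 over these cases. Without Saline-water 13, which enters this comparison only through the shared estimate of spread, 22 genes passed, where 3.98% of all genes did. These 22 included the 5. Without the libraries high in pancreas genes 4 genes passed, where 1.25% of all genes did, with Ndufs6 in place of Ndufs7 and Sdhc. The median log2 fold change was then 0.23. Scaling by library totals alone gave 2 genes, where 4.35% of all genes passed. It moved the median of all genes to −0.13, with 75 of the 83 genes positive and a median of 0.10. At an unadjusted p under 0.05 there were then only 7 of the 83 genes, against 4227 of all 16340 genes. Enterocyte markers were also positive (15 of 15, median log2 0.36, 3 past the threshold), as were those of smooth muscle (12 of 12, median 0.34, 1 past the threshold) and exocrine pancreas (20 of 20, median 0.90, 0 past the threshold). Immune markers were negative (0 of 10 positive, median −0.27, 0 past the threshold). Over the libraries their list means were 10.1 to 10.7 and 9.75 to 10.3 log2 CPM for enterocytes, and 6.48 to 7.07 and 5.80 to 6.82 log2 CPM for smooth muscle, in Leptin-antibiotic and Leptin-water libraries of set MT. The part of these markers in the result was not tested beyond a fit with list means of pancreas, smooth muscle and stomach as covariates. In that fit, which did not hold the enterocyte list, 48 genes rose, where 6.99% of all genes passed.

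**Figure D3:**
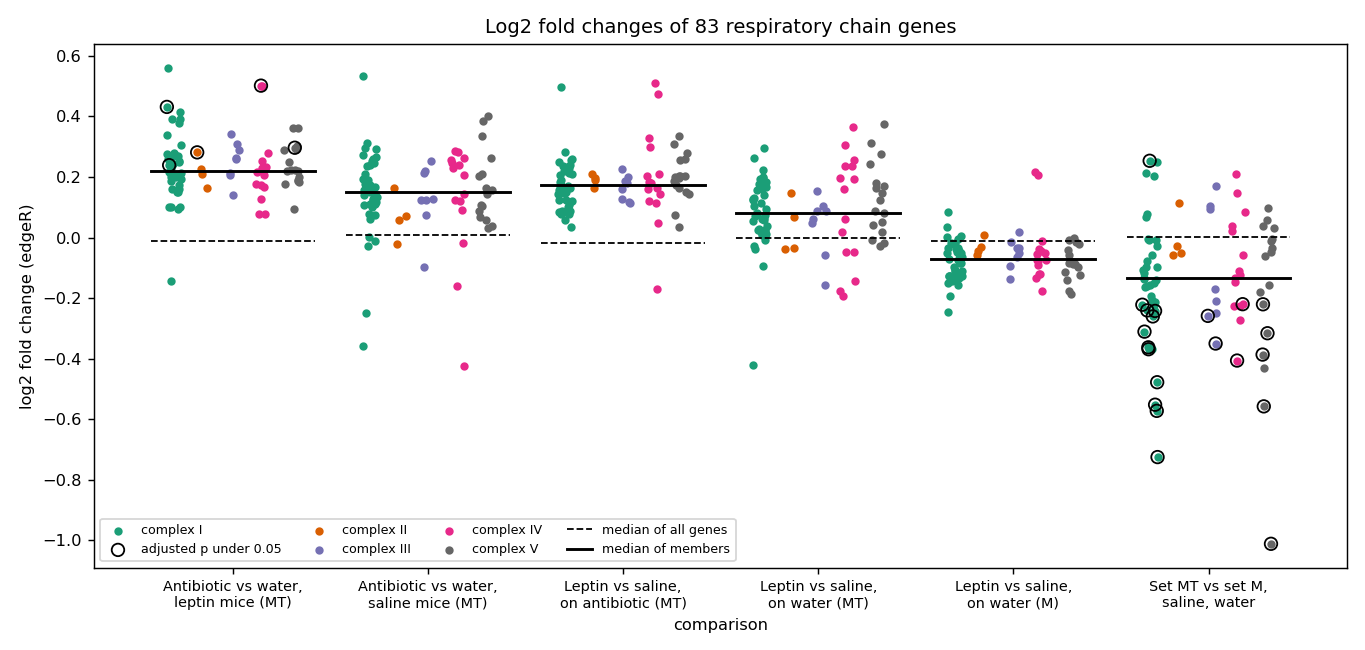
Log2 fold change (y axis) of each of the 83 genes in 6 comparisons (x axis), coloured by complex. Rings mark an adjusted p under 0.05, solid lines the median of the 83 genes and dashed lines that of all genes. The solid line is at 0.22, 0.15 and 0.17 in the first 3 comparisons, which involve antibiotic, and at −0.13 between the sets.

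Promoter sequences are shown for the 2 most strongly expressed genes that passed with a window at hand, Cox6a1 and Atp5h, for Ndufb10, which had the lowest adjusted p, and for Atp5k, described below for its difference between sets. The windows come from RefSeq (GRCm38.p6) and give the 180 bases before the annotated start, 5′ to 3′ on the gene's strand, which is the minus strand for all 4. Capitals mark matches on either strand to the palindromic core motif of NRF1, a regulator of respiratory genes, CCGGAAG (ETS family), GGGCGG (SP1), AAGATGGC (YY1) or TCAAGGTCA (oestrogen-related receptors), and no marked match overlaps another.
Cox6a1, chr5:115348959-115349138: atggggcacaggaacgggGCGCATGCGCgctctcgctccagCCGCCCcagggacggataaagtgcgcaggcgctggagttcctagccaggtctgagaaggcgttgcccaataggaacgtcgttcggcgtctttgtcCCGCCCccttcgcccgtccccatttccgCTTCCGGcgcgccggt
Atp5h, chr11:115419920-115420099: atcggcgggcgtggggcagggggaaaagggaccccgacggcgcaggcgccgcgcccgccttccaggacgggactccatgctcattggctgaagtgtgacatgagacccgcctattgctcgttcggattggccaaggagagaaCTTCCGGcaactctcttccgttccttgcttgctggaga
Ndufb10, chr17:24724424-24724603: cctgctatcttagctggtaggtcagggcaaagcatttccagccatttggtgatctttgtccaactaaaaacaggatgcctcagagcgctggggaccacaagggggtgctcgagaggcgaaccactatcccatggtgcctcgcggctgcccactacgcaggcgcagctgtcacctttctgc
Atp5k, chr5:108434400-108434579: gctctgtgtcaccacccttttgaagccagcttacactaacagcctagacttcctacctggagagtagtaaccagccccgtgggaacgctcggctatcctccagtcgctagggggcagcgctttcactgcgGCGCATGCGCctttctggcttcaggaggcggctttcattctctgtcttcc
In Cox6a1 the NRF1 match begins at position -162, the SP1 matches at -139 and -44 and the ETS match at -16. In Atp5h the ETS match begins at -38, and in Atp5k the NRF1 match begins at -50. The window of Ndufb10 holds none of these letters.

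Windows of 250 bases before to 50 bases after the start were at hand for 65 of the 83 genes (70 windows) and for 12683 genes in all (15997 windows). The NRF1 letters were in 7.14% of the windows of the chain (5 windows) and 1.71% of all windows. Those of the ETS family were in 24.3% (17 windows) and 14.9%, and those of YY1 in 14.3% (10 windows) and 3.74%. Those of the oestrogen-related receptors were in 2.86%, which is only 2 windows of the chain, and 0.275%. The SP1 letters were in 40% of the windows of the chain and 57.2% of all windows. A match is a run of letters and says nothing of binding in this tissue.

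With antibiotic in saline-injected mice no gene passed. Of the 83 genes, 74 had a positive log2 fold change, with a median of 0.15 against 0.01 for all genes. By edgeR, 0 genes passed, where 0.196% of all genes did, and 24 had an unadjusted p under 0.05 (28.9%, against 12.5% of all genes). DESeq2 called 1 gene, where it called 1.11% of all genes, and limma voom with quality weights 0. Ndufb10 had 56.8, 60.9 and 63.4 CPM (lowest, median and highest) in Saline-antibiotic and 45.9, 52.8 and 54.8 CPM in Saline-water libraries of set MT. It was the only gene of the 83 whose groups did not overlap, where 0.397% of all genes were higher without overlap (log2 0.24, SE 0.06, adjusted p = 0.112). Ndufa5, of the matrix arm of complex I and the gene that DESeq2 called, had 24.7, 26.4 and 35.7 CPM against 10.8, 19.8 and 26.1 CPM (log2 0.53, SE 0.15, adjusted p = 0.127). Its 10.8 CPM was that of Saline-water 13, and the other 5 Saline-water libraries of set MT had 17.5 CPM or more. The 9 genes with a negative fold change were Cox4i2, Cox7a2l, Cox8a, Ndufa4l2, Ndufa11b, Ndufb4, Ndufb4c, Sdhb and Uqcrc1. Of these, Cox8a, Ndufa4l2, Ndufb4, Ndufb4c, Sdhb and Uqcrc1 were higher in Saline-water 13 than in all 5 other Saline-water libraries of set MT. Without Saline-water 13, 76 of the 83 genes were positive.

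Both groups of this comparison held libraries that stood apart. Without Saline-water 13 the median was 0.12 and 9 genes had an unadjusted p under 0.05, where 1925 of all genes did. Without the libraries high in pancreas genes these were 0.24 and 45, where 2283 of all genes did (the median in leptin-injected mice was then 0.23). Without both they were 0.20 and 51, where 2849 of all genes did. In that case 3 genes were past the threshold, where 1.32% of all genes were. Leaving out Saline-water 9 gave 1 gene, and the share of all genes in that fit is not given here. Scaling by library totals alone gave 72 of the 83 genes positive with a median of 0.11. At an unadjusted p under 0.05 there were then 7 of the 83 genes, against 1989 of all 16340 genes. Markers of exocrine pancreas (19 of 20 positive, median log2 3.16), stomach and Brunner gland (9 of 9, median 0.51), smooth muscle (12 of 12, median 0.16) and enterocytes (15 of 15, median 0.16) were also positive and those of immune cells were not (0 of 10, median −0.30), and 0 of these markers passed. Their part in the result was not tested beyond the fit with the 3 list means as covariates. It called 13 genes, all higher, where 1.35% of all genes passed.

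With leptin in mice on antibiotic no gene passed either. All but Cox6b2 of the 83 genes had a positive log2 fold change, with a median of 0.17 against −0.02 for all genes. By edgeR 0 genes passed, where 0.514% of all genes did, and 23 had an unadjusted p under 0.05 (27.7%, against 17.2% of all genes). DESeq2 called 3 genes (Ndufb10, Cox6a1 and Cox7a1), where it called 2.81% of all genes, and limma voom with quality weights 0. Ndufb10 had its lowest, median and highest values at 63.9, 71.5 and 82.4 CPM in Leptin-antibiotic libraries, against 56.8, 60.9 and 63.4 CPM in Saline-antibiotic libraries (log2 0.26, SE 0.06, adjusted p = 0.0611). The estimate was 0.33 for Cox6a1 (SE 0.09, adjusted p = 0.0753) and 0.47 for Cox7a1 (SE 0.15, adjusted p = 0.133). Higher in every Leptin-antibiotic than in every Saline-antibiotic library were 5 of the 83 genes, namely Cox5a, Ndufa2, Ndufb9, Ndufb10 and Ndufb11, where 1.6% of all genes were. This comparison shares the Leptin-antibiotic libraries with that of antibiotic in leptin-injected mice.

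The values were smaller without the libraries high in pancreas genes, of which 3 are Saline-antibiotic and 1 is Leptin-antibiotic. The median log2 fold change was then 0.03, 55 of the 83 genes were positive, and 1 had an unadjusted p under 0.05. Without Leptin-antibiotic 3 alone the median was 0.11. The count of genes past the threshold was 1 without Leptin-antibiotic 5 or 6 or Saline-antibiotic 6. The share of all genes in those fits is not given here. The count was 2 without Saline-water 13, namely Ndufb10 and Ndufa2, where 1.12% of all genes passed. Scaling by library totals alone moved the median of all genes to −0.11 and gave 70 of 83 genes positive with a median of 0.08. At an unadjusted p under 0.05 there were then 3 of the 83 genes, against 3503 of all 16340 genes. Enterocyte markers were also positive (15 of 15, median log2 0.35), and those of exocrine pancreas (1 of 20 positive, median −1.09) and smooth muscle (0 of 12, median −0.13) were not. None of these markers passed, and their part in the result was not tested beyond the fit with covariates (0 genes, where 0% of all genes passed, median 0.12).

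Whether the antibiotic changed the leptin effect on the chain was tested as a difference of fold changes in the 24 libraries of set MT. The difference was positive for 67 of the 83 genes with a median log2 of 0.08, and 0 genes passed by edgeR (lowest adjusted p = 0.772), where 0% of all genes did. At an unadjusted p under 0.05 there were 4 genes by edgeR, Cox6a1 (difference 0.38, SE 0.13), Uqcrc1 (0.36), Sdhc (0.22) and Ndufb10 (0.19), a share of 4.82% against 6.38% of all genes. Uqcrc1 had 681 CPM in Saline-water 13 and 420 to 524 CPM in the other Saline-water libraries of set MT. Sdhc had 212 CPM there and 178 to 194 CPM in the others. DESeq2 and limma voom (quality weights) likewise called 0, with 4 and 6 genes at an unadjusted p under 0.05. Without the libraries high in pancreas genes the median difference was 0.01, and 43 of the 83 genes were positive. It was 0.01 without Leptin-antibiotic 3 alone, 0.13 without Saline-water 13 alone, 0.04 without Saline-water 13 and the libraries high in pancreas genes, and 0.003 with library totals alone (43 genes positive).

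Leptin in mice on water gave medians of opposite sign in the sets, and no gene passed. In a fit of all 27 libraries without antibiotic that also held set, 44 of the 83 genes were positive (median log2 0.01), and 0 genes passed by edgeR, DESeq2 and limma voom with quality weights, where 0.312% of all genes did by edgeR. At an unadjusted p under 0.05 there were 0, 0 and 2 genes, where edgeR gave 11.4% of all genes. In set MT, 66 of the 83 genes were positive with a median of 0.08, and in set M 8 were positive with a median of −0.07. In neither set did a gene pass by any of the 3 tools, where 0% of all genes did in set MT and 0.0856% in set M. At an unadjusted p under 0.05 edgeR gave 5 and 1, DESeq2 5 and 1, and limma voom 1 and 6 genes in set MT and set M, where edgeR gave 7.31% and 11.8% of all genes. The lowest adjusted p was that of Cox7b in set MT, a small subunit of complex IV (log2 0.36, SE 0.14, adjusted p = 0.622), and that of Ndufv3 in set M, a subunit of the NADH-binding module (log2 −0.13, SE 0.06, adjusted p = 0.379). The medians depended on single libraries. Without Saline-water 13 they were 0.05 in set MT (58 genes positive) and −0.01 over both sets, and without the libraries high in pancreas genes 0.04 (52 positive) and −0.01. Without both kinds of library they were 0.01 in set MT (45 positive), −0.04 in set M (16 positive) and −0.02 over both sets. Without Leptin-water 10 alone the median of set MT was 0.04, and without Leptin-water 3 alone that of set M was −0.03.

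The difference of the leptin effect between sets was positive for 73 of the 83 genes, with a median log2 of 0.16 for set MT minus set M. By edgeR 0 genes passed, where 0.0428% of all genes did, and 17 had an unadjusted p under 0.05 (20.5%, against 9.86% of all genes). DESeq2 and limma voom with quality weights called 0 genes too, with 17 and 13 at an unadjusted p under 0.05. The lowest adjusted p was that of Ndufa7 (difference 0.33, SE 0.11, adjusted p = 0.266). The median difference was 0.10 without Saline-water 13, 0.09 without Leptin-water 10, and 0.03 without Saline-water 13 and the libraries high in pancreas genes. Smooth muscle differed the other way (0 of 12 markers positive, median −0.68), as did enteric neurons and glia (1 of 10 positive, median −0.71), with 0 markers past the threshold.

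In Saline-water mice, 20 genes were lower and 1 was higher in set MT (6 libraries) than in set M (8 libraries), where 8.97% of all genes were lower and 8.28% higher. The median log2 fold change of the 83 genes was −0.13, against 0.002 for all genes. By complex as assigned by symbol, 11 of 39 genes of complex I, 0 of 4 of complex II, 2 of 8 of complex III, 2 of 15 of complex IV and 5 of 17 of complex V were lower. The 11 include Ndufa4. The labels give no difference between these mice besides the kind of library name, so what else differed between the sets cannot be told apart from it. Markers of enteric neurons and glia (8 of 10 positive, 3 past the threshold), immune cells (9 of 10, 2 past the threshold) and exocrine pancreas (18 of 20, median 2.19) were higher on balance in set MT, and those of stomach and Brunner gland lower (0 of 9 positive, median −1.02, 1 past the threshold). Their part in the result was not tested beyond the fit with covariates, which called 25 genes, all lower, where 13.2% of all genes passed.

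The lowest adjusted p-values were those of Ndufb10 and Ndufb7, and the lowest log2 fold change was that of Atp5k. Ndufb7, an accessory subunit of the membrane arm of complex I (chromosome 8, 83566671 to 83571626, plus strand), had lowest, median and highest values of 13.8, 22.1 and 24.8 CPM in set MT and 30, 34.8 and 37.9 CPM in set M. It was lower in set MT (log2 −0.72, SE 0.12, adjusted p = 0.00013), and the groups did not overlap. Ndufb10 had 45.9, 52.8 and 54.8 CPM in set MT and 58.9, 66.2 and 72.5 CPM in set M (log2 −0.37, SE 0.06, adjusted p = 9.94e-05). Its values in the Leptin-antibiotic libraries of set MT, 63.9 to 82.4 CPM, thus lay within or above the range of Saline-water libraries of set M. Ndufa3 (−0.48), Ndufa13 (−0.55) and Ndufs7 (−0.24) were lower too. Of complex V, Atp5k, the small subunit e of the membrane part (chromosome 5, 108433244 to 108434448, minus strand), had 2.63, 22.5 and 27 CPM in set MT and 36, 38.4 and 47.3 CPM in set M (log2 −1.01, SE 0.24, adjusted p = 0.00505). Atp5e, the epsilon subunit of the rotor, had a log2 fold change of −0.56, and Uqcrq of complex III one of −0.35. Groups without overlap, all lower in set MT, were found for 8 of the 83 genes, where 2.08% of all genes were lower without overlap. The gene that was higher was Ndufs6, a zinc-binding subunit, at 36.5 ± 5.05 CPM in set MT and 30.4 ± 2.15 CPM in set M (log2 0.25, SE 0.08, adjusted p = 0.0237).

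**Figure D4:**
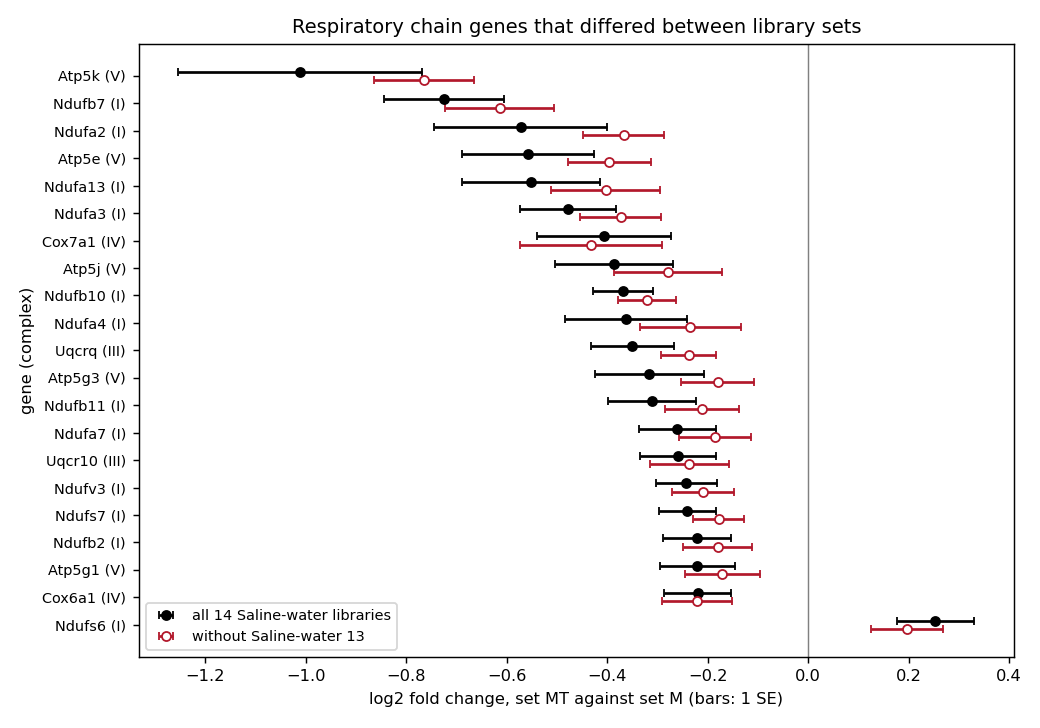
Log2 fold change of set MT against set M in Saline-water mice (x axis, bars 1 SE) for the 21 genes that passed (y axis, complex in parentheses). Filled points use all 14 libraries and open points leave out Saline-water 13. Open points of the genes that were lower stay below 0, and 14 of the 21 genes passed without that library.

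The 20 genes that were lower kept a negative log2 fold change without Saline-water 13. The count was then 14 genes lower and 0 higher, all of them among the 21, where 15.9% of all genes passed. The median was −0.06. Atp5k had a log2 fold change of −0.77 and Ndufb7 one of −0.61. Scaling by library totals alone left 11 genes lower and 1 higher, where 16.3% of all genes passed. Genes with short transcripts were lower as a class. Among genes of at least 3 log2 CPM whose longest transcript has at most 1000 bases, the median log2 fold change between sets was −0.09 (360 genes) and that of the 36 genes of the chain in this class was −0.16. For transcripts over 4000 bases the medians were 0.01 (4230 genes) and −0.22 (4 genes of the chain). The part of transcript length in the result was not tested.

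Saline-water 13 departed from the other 5 Saline-water libraries of set MT in both directions. It lay below all 5 for 49 of the 83 genes and above all 5 for 16. Atp5k had 2.63 CPM there and 23.5 ± 2.71 CPM in the other 5, a difference of −3.13 on the log2 scale. Ndufa2, an accessory subunit of complex I, had 7.71 CPM against 29.7 ± 2.04 CPM. Atp5j2, subunit f of complex V, had 15.8 CPM against 41.9 ± 3.93 CPM. Cox8a, a small subunit of complex IV, went the other way with 374 CPM against 181 ± 11.4 CPM, and so did Ndufb4, of the membrane arm of complex I, with 40.8 CPM against 21.1 ± 1.97 CPM. Over all genes of at least 3 log2 CPM, the SD of this difference was 1.19 for the 67 genes whose longest transcript has at most 600 bases and 0.29 for the 4191 genes with over 4000 bases.

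**Figure D5:**
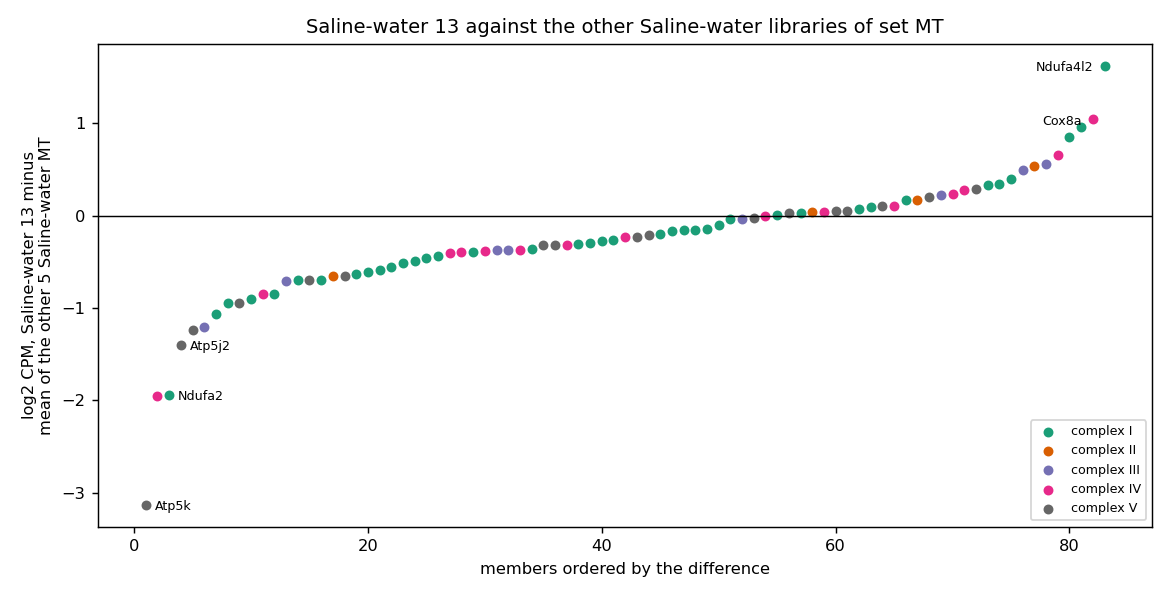
Difference in log2 CPM between Saline-water 13 and the mean of the other 5 Saline-water libraries of set MT (y axis) for the 83 genes in rising order (x axis), coloured by complex. The differences run from −3.13 for Atp5k to 1.62 for Ndufa4l2, and 23 genes lie more than 0.5 below 0.

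Within groups, deviations of the mean of the 83 genes from the group mean were related to those of 8 marker lists in each set, which makes 16 relations with p-values from 100000 permutations, two-sided. In set MT (n = 24) the chain was lower where smooth muscle markers were higher (Pearson's r = −0.76, p = 2e-05, adjusted p = 0.00032, and Spearman's rho = −0.72, p = 0.00011, adjusted p = 0.00176). Without the 2 libraries farthest from the median of the smooth muscle list r was −0.65, and without Saline-water 13 it was −0.84. Enteric neuron and glia markers had r = −0.71 (p = 6e-05, adjusted p = 0.00048) and rho = −0.69 (p = 0.00033, adjusted p = 0.00264), with −0.54 without the 2 farthest libraries. Enterocyte markers had r = 0.52 (p = 0.00904, adjusted p = 0.0362) and rho = 0.61 (p = 0.00168, adjusted p = 0.00792), with 0.58 without the 2 farthest. Striated muscle markers, with list means of only −0.32 to 0.48 log2 CPM, had r = −0.57 (p = 0.00344, adjusted p = 0.0183). Their rho was −0.61 (p = 0.00198, adjusted p = 0.00792). Stomach and Brunner gland markers passed by rho (−0.51, p = 0.0119, adjusted p = 0.0381) and not by r (−0.34, p = 0.102, adjusted p = 0.233). In set M (n = 15) none of the 8 relations passed after adjustment, with r = 0.06 for smooth muscle (p = 0.833, adjusted p = 0.889) and rho = −0.04 (p = 0.903, adjusted p = 0.903). For enterocytes they were r = 0.52 (p = 0.0503, adjusted p = 0.161) and rho = 0.49 (p = 0.0684, adjusted p = 0.156). All values of a library share its scaling, so these relations are not independent of each other.

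The other genes of the pathway were read from lists of assembly factors, electron carriers, the citric acid cycle and regulators of mitochondrial biogenesis, with 98 genes tested. With antibiotic in leptin-injected mice 3 of the 98 rose and 0 fell, where 1.85% of all genes rose. The 3 were Dlst, a subunit of the oxoglutarate dehydrogenase complex (log2 0.33, adjusted p = 0.0359), Etfb, of the electron transfer flavoprotein (0.23, adjusted p = 0.0441), and Esrra, the oestrogen-related receptor alpha, a regulator of respiratory genes (0.33, adjusted p = 0.0155). The citric acid cycle list had 17 of 17 genes positive (median 0.19) and the carriers 12 of 12 (median 0.20), whereas 8 of 15 biogenesis regulators were positive. With leptin on antibiotic 3 of the 98 rose and 0 fell, where 0.514% of all genes passed. The 3 were Esrra (0.34, adjusted p = 0.0282) and, of the complex IV assembly list, the heme A synthesis gene Cox15 (0.28, adjusted p = 0.0282) and the hypoxia-inducible Higd1a (0.46, adjusted p = 0.0481). That list had 16 of 19 genes positive (median 0.14), and the complex I assembly list had 5 of 15 (median −0.06). With antibiotic in saline-injected mice, with leptin on water and in both tests of a difference of leptin effects, 0 of the 98 genes passed by edgeR. Between sets 9 of the 98 were lower in set MT, where 8.97% of all genes were, among them the copper chaperone gene Cox17 (−0.44) and the ATP synthase inhibitor gene Atpif1 (−0.27). Higher were 2, where 8.28% of all genes were, namely Ndufaf4 (0.27) and Gabpa, a subunit of an ETS factor that activates respiratory genes (0.32).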

How the data were processed

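Counts per gene were deposited by the authors as 1 filtered table for all 39 libraries. Per the submitters' processing notes, the tools were HISAT2, featureCounts, FastQC and edgeR 3.42.0 with build mm10, in roles not listed, and per the labels' protocols the libraries were stranded, depleted of ribosomal RNA and paired-end. No source used here gives the strand setting of the counting or the rule of the filter, so overlapping genes can share counts. The table held 0 columns of other samples. Replicates of a group differed by more than counting noise (chi-square per degree of freedom 19.7 to 201 over 109 pairs).

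From these counts, log2 CPM was computed after TMM scaling with a prior count of 2, and edgeR 4.0.16 (R 4.3.3) gave quasi-likelihood tests with Benjamini-Hochberg adjustment over all genes left by filterByExpr, at a threshold of 0.05. All 83 genes passed that filter. Antibiotic comparisons and leptin in set MT came from a fit of the 24 libraries of set MT, and the others from fits of the 27 water libraries. The SE is the log2 fold change over the root of the F statistic. Positions and lengths come from GENCODE vM21 (GRCm38), in which 79 of 83 symbols matched. DESeq2 1.42.0, limma 3.58.1 voom with quality weights, other scalings, no filter, marker means as covariates and left-out libraries were alternatives. The fits were tested on simulated data. Named were genes past the threshold, fixed catalytic subunits, paralogues and genes of low level. Genes named for their level, their p or fold change, a lack of overlap, or Saline-water 13 were chosen after their values were seen. The members and lists were chosen with earlier results of these data known. Counting error is small at these depths next to the spread between libraries. Not every member's values are reported here.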

Additional observations from a re-analysis of the deposited data

Results flagged for a closer look

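A library was marked where its gap to the nearest other library of its group was large for the range of the group (Dixon's test). This was run for 58 measures in the 6 groups, 348 groups in all, and marked 55. Chance marks about 1 in 20 of independent measures chosen beforehand. Here the genes tested were those named in this text, some of them for such values. Values of a library also share its scaling, and Saline-water 13 gave 20 of the marks. The count of 55 therefore cannot be set against that rate. Leptin-antibiotic 3 was the highest of its group in CPM for Atp5a1 (1754), Atp5b (2245), Atp5k (48.1), Atp5o (319), Cox4i1 (388), Cox5a (239), Cox6b1 (306) and Cox7a2 (167). Leptin-antibiotic 3 was the highest of its group in CPM for Cox8a (268), Ndufa7 (60.4), Ndufb11 (59.4), Ndufb4 (33.5), Ndufb4c (12), Ndufb9 (129) and Ndufs3 (68). Leptin-antibiotic 3 was the highest of its group in CPM for Ndufv3 (63), Sdhb (246), Sdhc (270), Sdhd (330) and Uqcrfs1 (322). It was also the highest for the percent of all counts taken by the 83 genes (1.4%). It was also the highest for the mean log2 CPM of complex II (8.43). Saline-water 13 was the lowest of its group in CPM for Atp5e (21.1), Atp5g2 (33.9), Atp5g3 (180), Atp5j2 (15.8), Atp5k (2.63), Cox4i1 (228), Cox5a (91.9) and Cox7c-ps1 (2.29). Saline-water 13 was the lowest of its group in CPM for Ndufa2 (7.71), Ndufa3 (23.4), Ndufb11 (27.8), Ndufs3 (30.9), Sdhd (146), Uqcrh (55.2) and Uqcrq (66.1). Saline-water 13 was the highest of its group in CPM for Cox8a (374), Ndufb4 (40.8), Ndufb4c (16.1) and Sdhb (228). It was also the lowest for the mean log2 CPM of complex V (6.37). Leptin-water 10 was the highest of its group in CPM for Atp5j2 (64.5), Cox6b2 (1.54), Ndufb4c (13.6), Ndufb7 (28.8) and Ndufs6 (42.3). Leptin-water 7 was the highest of its group in CPM for Atp5b (1658) and Uqcrc1 (552). Leptin-antibiotic 5 was the lowest of its group in CPM for Ndufs1 (162). Leptin-water 1 was the highest of its group in CPM for Ndufs5-ps (6.99). Leptin-water 11 was the highest of its group in CPM for Ndufa4l2 (0.932). Leptin-water 3 was the lowest of its group in CPM for Atp5e (47.3). Saline-antibiotic 5 was the lowest of its group in CPM for Ndufb9 (82.6). Saline-antibiotic 6 was the highest of its group in CPM for Ndufa5 (35.7).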

How the results depend on the processing

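The median for leptin on water over both sets, 0.01, changed sign to −0.0253 with limma voom, −0.00295 with library totals alone, −0.0136 without the libraries high in pancreas genes, −0.0057 without Saline-water 13 and −0.0194 without both, and ran from −0.0215 to 0.0236 with 1 library left out. The medians of the other 8 comparisons kept their sign under the alternatives run. With antibiotic in leptin-injected mice the count of 5 became 16 with DESeq2, 32 with limma voom and quality weights, 3 with upper quartile scaling, 2 with library totals alone, 48 with marker covariates, 22 without Saline-water 13 and 26 without it and the libraries high in pancreas genes. The share of all genes that passed, 2.28% as designed, was 4.74%, 8.53%, 1.37%, 4.35%, 6.99%, 3.98% and 3.49% in the same order. With leptin on antibiotic the count of 0 became 3 with DESeq2 and 2 without Saline-water 13, where 2.81% and 1.12% of all genes passed. The median of 0.17 became 0.0305 without the libraries high in pancreas genes and 0.0303 without these and Saline-water 13. With antibiotic in saline-injected mice the count of 0 became 1 with DESeq2, 13 with covariates and 3 without both kinds of library. The shares of all genes that passed were 1.11%, 1.35% and 1.32%. The count of 21 between sets became 12 with library totals alone, where 17.3% and 16.3% of all genes passed. The median difference of the leptin effect between sets became 0.0326 without both kinds of library. Leaving out 1 library at a time gave counts of 2 to 22 for antibiotic in leptin-injected mice, 0 to 2 for leptin on antibiotic, 0 to 1 for antibiotic in saline-injected mice and 14 to 23 between sets. The shares of all genes in these fits, other than that without Saline-water 13, are not given here. Leaving out Saline-water 13, alone or with the libraries high in pancreas genes, was chosen after seeing the data, and the cause of these changes was not tested. Most same-numbered libraries did not deviate together (r −0.28 to 0.58 over 18 pairs, 4 of them over 0.1). Of these 4, 3 were among the 7 pairs of set M and 1 was on antibiotic, at 0.58. The numbers were not taken as pairs in the main tests. With the replicate number as a block, 0 genes passed for leptin on antibiotic (median 0.15), in set MT (0.10) and in set M (−0.07).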
